A study of Mus musculus with 44 samples.

Results

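Atf4, Chac1, Slc7a3, Ddit3, Trib3 and Asns were followed over mouse germ cell development. The 6 genes were chosen by their levels in primordial germ cells (PGC) against embryonic stem cells (ESC) in these same arrays, and every probe that the platform annotation assigns to one of them was read. They had 10 of the 25697 probes on the array, and all 6 were among the 10935 genes tested. PGC are the precursors of eggs and sperm, and here they had been sorted by FACS and hybridized to MouseRef-8 v2 beadchips, 44 arrays in all. There were 2 arrays of E11.5 PGC of undefined sex, and 2 arrays each of female and of male PGC at each daily stage between embryonic days (E) 12.5 and 18.5. Germ cells of males after birth, under the same PGC label, were hybridized in duplicate for 8, 10, 12, 16, 18 and 20 days of age (dpp, days post partum) and on a lone array for 14 dpp. The PGC labels give no strain or genotype. A single array held ESC, a male line of strain OG2 with the genotype +/+ Oct4-GFP. Nothing says that duplicates came from separate animals or cultures, so p-values measure only the spread between these samples, which may be technical.

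When amino acids run short or unfolded proteins build up in the endoplasmic reticulum (ER), a family of kinases phosphorylates the translation factor eIF2alpha, most protein synthesis slows, and translation of Atf4 mRNA rises. Atf4 is a bZIP transcription factor that pairs with C/EBP proteins on a composite element and turns on genes of amino acid synthesis and transport. Ddit3 (CHOP) and Trib3 are among its targets and act in the later, death-prone phase of the response. Because Atf4 is controlled in large part by translation, its mRNA need not follow its protein, and an expression array sees only the mRNA.

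Of the other 5 genes, Asns makes asparagine, Slc7a3 is a transporter of cationic amino acids, Chac1 breaks down glutathione, Ddit3 is a bZIP factor and Trib3 a pseudokinase. On the GRCm38.p6 assembly, Atf4 lies at chr15:80255184-80257545, Chac1 at chr2:119351242-119354326, Slc7a3 at chrX:101079146-101090452, Ddit3 at chr10:127290793-127296291, Trib3 at chr2:152337425-152344060 and Asns at chr6:7675165-7693209. Windows of 300 bases around the gene start, 250 before and 50 after, came from RefSeq for 5 of the 6 genes, and Slc7a3 had no entry. The motif TGATGNAA, the core of the C/EBP-ATF composite element, was searched on both strands. It occurred in 3 of the 5 windows, against 1304 of 32851 promoter windows (3.97%). The 3 windows are printed 5′ to 3′ along the gene with the match in capitals, to show where each match lies.
Asns: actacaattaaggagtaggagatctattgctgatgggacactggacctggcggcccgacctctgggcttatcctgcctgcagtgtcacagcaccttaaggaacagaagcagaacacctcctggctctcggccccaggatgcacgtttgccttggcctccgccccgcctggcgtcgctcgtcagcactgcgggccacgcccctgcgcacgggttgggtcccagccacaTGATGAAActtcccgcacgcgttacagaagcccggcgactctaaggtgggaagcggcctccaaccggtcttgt
Chac1: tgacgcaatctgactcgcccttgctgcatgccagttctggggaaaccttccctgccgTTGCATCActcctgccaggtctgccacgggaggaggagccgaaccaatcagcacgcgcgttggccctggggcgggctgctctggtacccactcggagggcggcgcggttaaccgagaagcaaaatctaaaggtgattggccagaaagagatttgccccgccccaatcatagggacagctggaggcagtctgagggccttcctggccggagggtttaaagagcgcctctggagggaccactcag
Trib3: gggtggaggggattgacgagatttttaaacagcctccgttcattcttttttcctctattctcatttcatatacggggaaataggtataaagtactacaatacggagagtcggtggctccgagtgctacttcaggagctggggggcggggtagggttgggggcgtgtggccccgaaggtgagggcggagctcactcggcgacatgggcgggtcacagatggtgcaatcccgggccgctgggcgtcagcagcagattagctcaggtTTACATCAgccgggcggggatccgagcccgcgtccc
The Asns window is chr6:7693160-7693459 on the minus strand, with TGATGAAA starting 23 bases before the gene start. Chac1 has the window chr2:119350992-119351291 on the plus strand, where the motif reads TGATGCAA on the strand opposite to the gene and lies 193 bases before its start. For Trib3 the window is chr2:152344011-152344310 on the minus strand, and the motif reads TGATGTAA on the opposite strand, 14 bases after the start. In human cells ATF4 is known to bind a nutrient-sensing element of this kind in the ASNS promoter. Whether these mouse matches are bound was not tested. No match was found in the Ddit3 and Atf4 windows, which says only that these letters are not in them.

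Intensities were corrected for background and quantile-normalized, and levels are given as log2 of the normalized intensity of a gene's brightest probe. On this scale the lowest values seen for these genes lay near 4.24, and a probe was detected on an array when its detection p was under 0.01. Upper quartiles of raw intensity ran from 79.9 to 170.2 on embryonic PGC arrays and from 295.5 to 605.5 after birth, and the ESC array had 323.6. The share of probes detected was 24.9% to 49.3%, 42.1% to 46.1% and 38.4% in the same order, with the E16.5 female pair the dimmest (upper quartiles 79.9 and 82.4). The lowest detected level differed between arrays, from 4.92 on E18.5 male replicate 2 to 7.21 on E16.5 female replicate 2. Detection counts of different groups therefore rest on different limits. Of 7 germ cell markers, 3 to 7 were detected on each PGC array, the fewest at E16.5 in females. All 6 ES cell markers were detected in ESC, and 0 to 6 of them on PGC arrays. Precision is limited by the number of arrays. In sorted bulk RNA a lower level from fewer cells of a type and one from less RNA per cell cannot be told apart.

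In ESC the raw intensity was 15523 for Asns, 8298 for Slc7a3, 2805 for Chac1, 2320 for Atf4, 359 for Trib3 and 184 for Ddit3. These levels chose the genes, so the difference from PGC is a description without a test, and the single ESC array has no replicate. Slc7a3 stood at log2 level 11.85 in ESC, 6.68 above the mean of the 22 PGC groups. Atf4 stood at 10.26, or 5.08 above that mean, and Chac1 at 10.51, or 4.77 above it. Asns stood at 12.53, or 2.27 above the PGC mean, and Trib3 at 7.39, or 1.69 above it. For both, single PGC groups came close to ESC. Asns reached 12.05 in E16.5 males and Trib3 7.36 in E12.5 males. The second Asns probe read 10.56 in ESC and 10.57 in E16.5 males. Ddit3 went the other way, at 5.75 in ESC against a PGC mean of 6.80, although its dimmer probe read 6.12 in ESC and 6.10 in PGC. So 5 of the 6 genes were at least 2-fold above the PGC mean in ESC, where 15.6% of all genes tested were, and nothing is read from this share because it was used in the choice. Against the 15 embryonic groups alone the same 5 genes were at least 2-fold above, with a background of 16.8%. The second Slc7a3 probe was detected on 0 of 44 arrays and read 5.003 in ESC, so the high Slc7a3 level rests on 1 probe.

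Other genes of the pathway were placed in lists by function, and their ESC levels were read the same way, as a description of 1 array without a test. All 8 measured enzymes of serine, proline and transsulfuration metabolism were at least 2-fold higher in ESC than the PGC mean, among them Cth, which makes cysteine (3.04), and Psat1 of serine synthesis (2.04). Of 10 other Atf4 target genes 7 were at least 2-fold above and 0 below, with Nupr1, a stress-induced chromatin protein, at 4.38 and Eif4ebp1, a repressor of cap-dependent translation, at 2.43. Among 6 amino acid transport genes 3 were above and 0 below, led by Slc3a2 (3.19), the heavy chain shared by several transporters. Of 18 cytosolic aminoacyl-tRNA synthetases, which charge tRNAs, 4 were above, with Tars at 3.32 and Nars at 2.64. The list of 12 ER chaperones and folding enzymes had 4 above, 1 below and a median log2 difference of 0.02. This list, called ER chaperones below, also holds the transcription factor Xbp1 and the protein degradation factor Edem1. Over all genes tested the median was −0.16, and 15.6% were at least 2-fold above the PGC mean. Of the genes named here, Cth was detected on 2 of 43 PGC arrays, Nupr1 on 9, Slc3a2 on 12 and Tars on 25. Nars was detected on 42, and Psat1 and Eif4ebp1 on all 43. Where a gene was rarely detected in PGC, its difference is a distance to background.

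Among PGC alone, where the choice of genes did not fix the pattern between groups, all 6 genes varied over the 22 groups in limma's moderated F-test, as did 89.7% of all genes tested. Adjusted p was 1.34e-18 for Asns, 2.34e-12 for Ddit3, 1.40e-08 for Chac1, 4.73e-07 for Slc7a3, 1.07e-06 for Trib3 and 6.72e-04 for Atf4. On the scale used here they did not move as one. Over the 22 PGC group means, the 15 correlations between pairs of these genes ran from −0.49 (Atf4 with Ddit3) to 0.71 (Slc7a3 with Trib3), with a median of −0.00523. The median depended on the normalization and was higher with cyclic loess and with median scaling. Atf4 was detected on 14 of 43 PGC arrays, so its correlations rest largely on values near background. All these correlations are a description, since the groups share the array platform and the normalization.

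**Figure D1:**
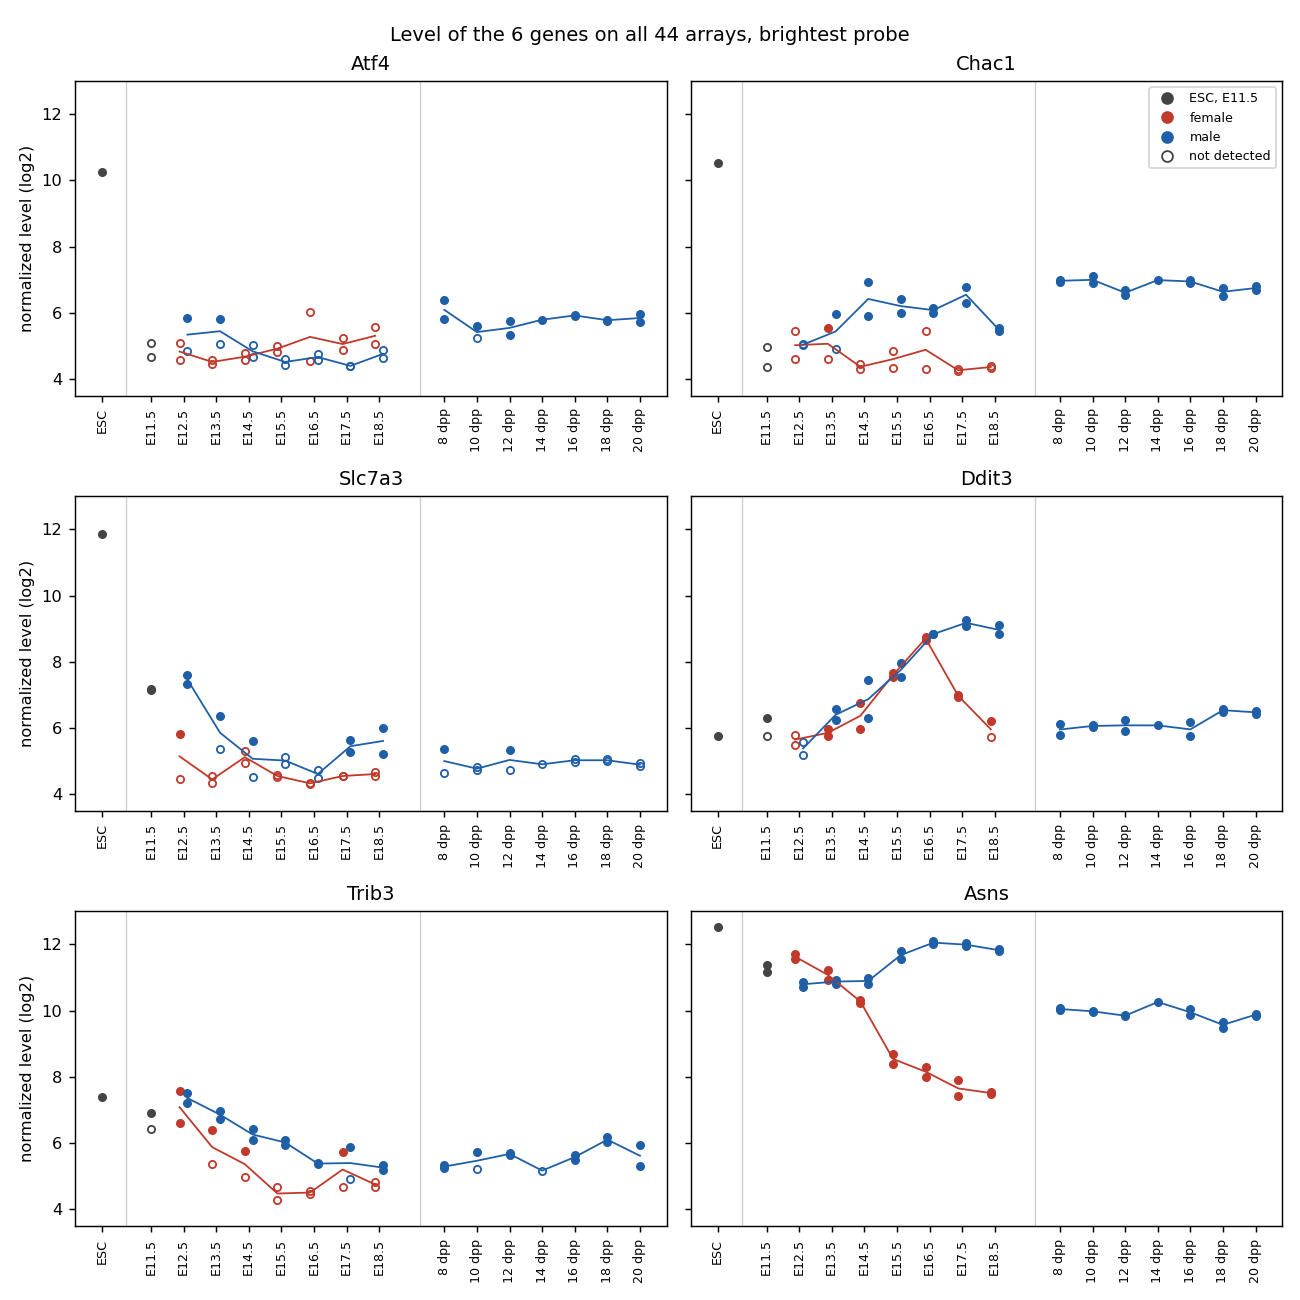
Normalized log2 level (y axis) of the brightest probe of each of the 6 genes on all 44 arrays by stage (x axis), with points for arrays, lines through group means and open points where the gene was not detected. Atf4, Chac1, Slc7a3 and Asns sit highest in ESC, Asns parts between the sexes after E13.5, and Ddit3 reads higher at E16.5 than at E12.5 in both sexes.

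Comparisons below use windows of 2 days with 4 arrays per sex, E12.5 to E13.5, E14.5 to E15.5 and E17.5 to E18.5. A gene is called higher, lower, risen or fallen where limma's moderated test gave an adjusted p (Benjamini-Hochberg over all 10935 genes) under 0.05 and the difference was at least 2-fold, and values after ± are standard errors of the log2 difference. For a gene detected on none of a group's arrays the text gives a lower bound on the fold ("at least"), the mean of the other group over, on each array, the higher of the lowest detected signal and the gene's own signal.

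Atf4 itself was hardly detected in fetal germ cells. It was detected on 0 of 2 arrays at E11.5, on 0 of 14 female arrays and on 2 of 14 male embryonic arrays, which were E12.5 male replicate 1 (5.83) and E13.5 male replicate 2 (5.82). The other embryonic arrays ran from 4.39 to 6.02, and the highest of them, E16.5 female replicate 1, was not detected while its partner read 4.53. After birth 12 of 13 arrays detected it, at 5.25 to 6.38, and 10 dpp replicate 1 did not. The order of Atf4 among embryonic groups is therefore not resolved.

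After birth Atf4 was higher. The 4 arrays at 8 and 10 dpp read 6.38, 5.80, 5.25 and 5.59, and the 4 late fetal male arrays read 4.39, 4.41, 4.88 and 4.65, with no overlap. The difference was at least 1.70-fold (fitted log2 difference 1.17 ± 0.25, adjusted p = 1.75e-04). Of the 6 genes, 3 were called in this comparison (Atf4 higher, Ddit3 and Asns lower), where 37.1% of all genes were called, 18.4% higher and 18.6% lower. Without background correction the log2 difference of Atf4 was 0.39, under 2-fold.

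Asns, which turns aspartate into asparagine, was detected on all 44 arrays and had the widest spread among PGC groups. In females it read 11.71 and 11.54 at E12.5, 11.23 and 10.93 at E13.5, and 10.24 and 10.31 at E14.5. It then stood at 8.40 and 8.69 at E15.5, 8.01 and 8.31 at E16.5, 7.41 and 7.89 at E17.5, and 7.48 and 7.54 at E18.5. On this normalized scale each female day was lower on both arrays than the day before up to E17.5. E17.5 and E18.5 differed by less than the gap between the E17.5 arrays. Mean raw intensity in females did not fall at every step. It was 1100 at E12.5 and 1194 at E13.5, and 87.5 on the dim E16.5 pair against 131.8 at E17.5. In males the level was 10.73 to 10.98 on the 6 arrays from E12.5 to E14.5, 11.57 and 11.79 at E15.5, and 11.80 to 12.10 on the 6 arrays from E16.5 to E18.5.

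From E12.5 to E13.5 to E17.5 to E18.5, female Asns fell by 3.77 ± 0.11 on the log2 scale, 13.7-fold (adjusted p = 4.16e-19), with no overlap of arrays. Male Asns rose by 1.07 ± 0.11 over the same days, 2.10-fold (adjusted p = 5.45e-09), again without overlap, although with median scaling in place of quantile normalization the rise was 0.64. Among the 6 genes, 2 were lower in late than in early females and 0 higher, where 21.7% of all genes were called, 10.1% higher and 11.6% lower. In males 2 were higher (Asns and Ddit3) and 2 lower (Trib3 and Slc7a3), where 36.7% were called, 20.3% higher and 16.4% lower.

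Before the sexes parted, Asns was slightly higher in females at E12.5 to E13.5, by 0.52 ± 0.11 (adjusted p = 6.26e-04), which is under 2-fold, and the arrays overlapped. At E14.5 to E15.5 it was lower in females by 1.88 ± 0.11 (3.68-fold, adjusted p = 1.53e-13). At E17.5 to E18.5 the means were 7.58 in females and 11.91 in males, a log2 difference of −4.33 ± 0.11 or 20.1-fold (adjusted p = 5.01e-20), and neither comparison had overlapping arrays. Raw intensities in that last window were 111 to 142 in females and 1096 to 1712 in males. The other probes of Asns gave −4.47 ± 0.12 and −2.77 ± 0.24 there, the last one detected on 0 of 4 female arrays and so at least 2.62-fold lower.

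**Figure D2:**
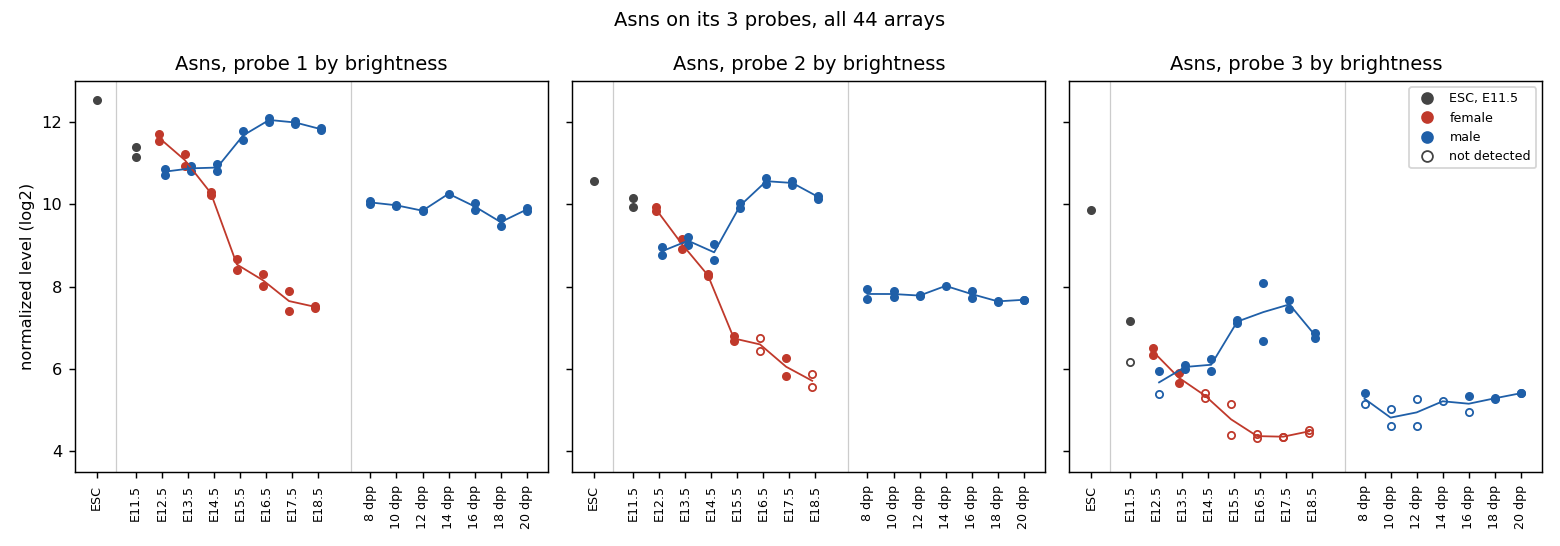
Normalized log2 level (y axis) of Asns on each of its 3 probes on all 44 arrays by stage (x axis), with lines through group means and open points where the probe was not detected. On all 3 probes the female level is lower at E17.5 than at E12.5 while the male level is higher at E16.5 than at E12.5.

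After birth Asns lay between late fetal females and late fetal males on this scale, and below both sexes of E12.5 to E13.5. It read 9.97 to 10.09 on the 4 arrays at 8 and 10 dpp and 9.48 to 10.26 over all 13 arrays. Against late fetal males it was lower by 1.89 ± 0.11 on the log2 scale (3.72-fold, adjusted p = 1.54e-13), with no overlap. This call depends on the scaling. Raw intensity was 2574 to 3528 at 8 and 10 dpp, above the 1096 to 1712 of late fetal males, and postnatal arrays were brighter throughout. With median scaling the Asns difference was 0.01 (adjusted p = 0.983), and the median of all genes moved to 1.10.

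Ddit3, whose protein CHOP promotes death of stressed cells, read higher at E16.5 than at E12.5 in both sexes. In males it read 5.59 and 5.17 at E12.5, 6.57 and 6.23 at E13.5, 7.45 and 6.30 at E14.5, and 7.96 and 7.55 at E15.5. It reached 8.84 and 8.84 at E16.5, 9.26 and 9.09 at E17.5, and 9.10 and 8.83 at E18.5. Every male array from E16.5 on was above every earlier one, and E18.5 overlapped both E16.5 and E17.5.

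On its brightest probe, female Ddit3 read 5.50 and 5.80 at E12.5, 5.75 and 5.96 at E13.5, 6.77 and 5.97 at E14.5, 7.65 and 7.55 at E15.5, and 8.75 and 8.66 at E16.5, then 7.0 and 6.94 at E17.5 and 6.20 and 5.72 at E18.5. The female level was thus highest at E16.5 and had returned to the range of the first 3 days by E18.5. The peak stands on the pair of E16.5 arrays, the dimmest of the series, where the raw intensity of Ddit3 was 93.0 and 95.6, below the 106.6 and 110.0 at E17.5. The dimmer Ddit3 probe also read highest in females at E16.5 (7.80 and 7.69, against 5.99 and 5.79 at E17.5), but on this same pair of arrays. Its mean raw intensity was 83.8 at E16.5 and 90.5 at E17.5. The lowest detected level was 7.09 and 7.21 on the E16.5 female arrays, against 5.83 and 5.60 at E17.5. The dimmer probe is therefore no separate support for a female peak.

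No difference of Ddit3 between the sexes was called at E12.5 to E13.5 or at E14.5 to E15.5 (−0.14 ± 0.20, adjusted p = 0.672, and −0.33 ± 0.20, adjusted p = 0.173). In the last window, E17.5 to E18.5, Ddit3 was lower in females by 2.60 ± 0.20 on the log2 scale, 6.08-fold (adjusted p = 1.97e-11), and the arrays did not overlap. Raw intensities were 85.6 to 110.0 in females and 210.8 to 236.5 in males. The dimmer probe gave −2.05 ± 0.22 there, and it already differed at E14.5 to E15.5, by −0.93 ± 0.22 (adjusted p = 6.39e-04, under 2-fold), with 1 of 4 female and 4 of 4 male arrays detected. From early to late male PGC, Ddit3 rose by 3.18 ± 0.20, 9.06-fold (adjusted p = 5.93e-13). The female change over the same windows was 0.71 ± 0.20, which is under 2-fold.

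After birth Ddit3 read 5.75 to 6.59 over 13 arrays, all below every male array from E15.5 to E18.5. It was lower at 8 to 10 dpp than in late fetal males by 3.06 ± 0.20 (8.35-fold, adjusted p = 1.48e-12). On the raw scale the difference ran the other way, with 257 to 326 at 8 and 10 dpp, on arrays whose upper quartiles were also higher. The call kept its direction under all normalization alternatives run, median scaling included.

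Chac1, a glutathione-degrading enzyme that marks Atf4 activity in many cells, differed between the sexes from E14.5. It was detected on 0 of 2 arrays at E11.5 and on 1 of 14 female arrays, E13.5 replicate 2 (5.54). The other female arrays read 4.24 to 5.47. In males it was detected on 1 of 4 arrays at E12.5 to E13.5 and on all 10 from E14.5 to E18.5, at 6.95 and 5.90 at E14.5, 6.41 and 5.998 at E15.5, 6.01 and 6.16 at E16.5, 6.79 and 6.31 at E17.5, and 5.45 and 5.55 at E18.5. After birth all 13 arrays detected it, at 6.52 to 7.11. Counts of detected arrays do not compare directly between the sexes. The lowest detected level was 5.60 to 5.92 on E17.5 and E18.5 female arrays and 4.92 to 5.09 on male ones. Male Chac1 at E18.5 would not have counted as detected on those female arrays.

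Chac1 was lower in females at E14.5 to E15.5 by at least 1.37-fold (fitted log2 difference −1.82 ± 0.26, adjusted p = 1.25e-06). In the late window it was lower by at least 1.17-fold (fitted −1.71 ± 0.26, adjusted p = 2.64e-06). Arrays of the sexes overlapped in neither window, but the male signal was faint, with raw intensities of 83.4 to 140.8 and 89.1 to 107.2. Without background correction both differences were under 2-fold (−0.67 and −0.65), with adjusted p of 1.69e-06 and 2.08e-06, and they were under 2-fold with cyclic loess and median scaling too. At 8 to 10 dpp Chac1 was 0.96 ± 0.26 above late fetal males (adjusted p = 2.50e-03), just under 2-fold, and 2.05 above with median scaling. It was called without E17.5 male replicate 1 (1.08) or without 10 dpp replicate 2 (1.01).

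Trib3, a pseudokinase that Atf4 and CHOP induce and that dampens the response, fell in both sexes from E12.5. In males it read 7.22 and 7.50 at E12.5, 6.98 and 6.74 at E13.5, 6.11 and 6.42 at E14.5, 5.95 and 6.09 at E15.5, 5.40 and 5.36 at E16.5, 5.89 and 4.91 at E17.5, and 5.18 and 5.34 at E18.5. Female arrays read 7.57 and 6.60 at E12.5, 6.40 and 5.36 at E13.5, 4.97 and 5.76 at E14.5 and 4.29 to 5.74 from E15.5 on, where 1 of 8 detected it. Male Trib3 fell by 1.78 ± 0.26 from early to late (3.44-fold, adjusted p = 1.44e-06) with no overlap, and female Trib3 fell by 1.504 ± 0.26 (2.84-fold, adjusted p = 2.68e-05) with overlap. Trib3 therefore went down in males over the same days in which male Ddit3 went up. Without background correction these changes were −0.77 and −0.59, under 2-fold, and the female change was also under 2-fold with an offset of 50 (−0.94), cyclic loess (−0.66) and median scaling (−0.77).

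Between the sexes Trib3 was lower in females at E14.5 to E15.5 by 1.22 ± 0.26 (2.33-fold, adjusted p = 2.28e-04), with no overlap. With cyclic loess this difference was −0.39 (adjusted p = 0.0657), with median scaling it was −0.51 and without background correction −0.43. By E17.5 to E18.5 it was −0.35 ± 0.26 (adjusted p = 0.236). After birth Trib3 read 5.17 to 6.19 and did not pass the test against late fetal males (0.05 ± 0.26, adjusted p = 0.876).

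Slc7a3, which carries arginine, lysine and ornithine and is X-linked, was present at the start of the course. It read 7.14 and 7.18 at E11.5, and in males 7.59 and 7.33 at E12.5, 6.36 and 5.36 at E13.5, 5.61 and 4.53 at E14.5, and 4.50 to 5.12 at E15.5 and E16.5. It was detected again on all 4 late fetal male arrays, at 5.63, 5.27, 5.997 and 5.22. In females it was detected on 1 of 14 arrays, E12.5 replicate 1 (5.81), and the others read 4.31 to 5.29. After birth 2 of 13 arrays detected it.

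At E12.5 to E13.5 Slc7a3 was lower in females by 1.86 ± 0.25 on the log2 scale (3.64-fold, adjusted p = 1.90e-06), although E12.5 female replicate 1 was above E13.5 male replicate 2. It was the only one of the 6 genes called in that comparison, where 12.7% of all genes were called, 7.06% higher and 5.67% lower in females. Without background correction the difference was −0.76. Male Slc7a3 fell by 1.13 ± 0.25 from early to late (2.19-fold, adjusted p = 3.76e-04), with overlap. This call was lost without E13.5 male replicate 1 (−0.88) or without E18.5 male replicate 2 (−0.94), and it was under 2-fold without background correction (−0.52). The female minus male difference at E17.5 to E18.5 was −0.95 ± 0.25 (adjusted p = 1.81e-03), just under 2-fold, with no overlap. Here Slc7a3 was detected on 0 of 4 female arrays, whose lowest detected levels (5.60 to 5.92) lay above the male mean of 5.53. No lower bound on the fold could be given, and a female level equal to the male mean would have gone undetected. Without E17.5 male replicate 2 (−1.04) or E18.5 male replicate 2 (−1.14) it was called.

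The comparison of E12.5 with E11.5 set 2 female and 2 male arrays against 2 of undefined sex. In it none of the 6 genes was called, against 5.89% of all genes, 3.33% higher and 2.56% lower, and at an unadjusted p under 0.05 Slc7a3 (−0.86 ± 0.31) and Ddit3 (−0.52 ± 0.25) passed. For Slc7a3 the sexes lay on opposite sides of the E11.5 mean of 7.16, at 5.14 ± 0.95 (SD, n = 2 arrays) in females and 7.46 ± 0.18 in males, so the pooled difference describes neither sex. Without E12.5 female replicate 1 the Slc7a3 difference was −1.20 and was called. E11.5 replicate 1 had a summed erythroid marker level of 66884, against 2891 in its partner, and at E12.5 each of the 5 was lower, as were 2 of 4 endothelial and 2 of 4 mesenchymal markers. Their part in these values was not tested. From 8 to 10 dpp to 18 to 20 dpp 0 of the 6 genes were called, where 1.56% of all genes were, 1.23% higher and 0.338% lower, and Asns (−0.29 ± 0.11) and Ddit3 (0.50 ± 0.20) passed an unadjusted p under 0.05 in limma.

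Counted together, 3 of the 6 genes were lower in females and 0 higher at E14.5 to E15.5 (Asns, Chac1 and Trib3), where 34.8% of all genes were called, 16.9% higher and 17.9% lower. In the late window again 3 were lower and 0 higher (Asns, Ddit3 and Chac1), where 42.5% were called, 20.0% higher and 22.5% lower. The median log2 difference of the 6 genes was −0.77 in the first and −1.33 in the second window, beside −0.03 and −0.02 over all genes. With counts of 6, these shares say nothing particular about the genes as a group.

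The change from early to late days was compared between the sexes by its interaction term. The female change minus the male change was called for 4 of the 6 genes, where 43.1% of all genes were called, 20.2% with a higher and 22.9% with a lower term. It was −4.84 ± 0.16 for Asns (adjusted p = 8.50e-18), −2.47 ± 0.29 for Ddit3 (adjusted p = 5.73e-08) and −1.51 ± 0.37 for Chac1 (adjusted p = 1.07e-03). For Atf4 it was 1.32 ± 0.35 (adjusted p = 2.05e-03), on a gene that no female array and only 2 early male arrays detected. The terms of Chac1 and Atf4 were under 2-fold without background correction, with an offset of 50, with cyclic loess and with median scaling. For Trib3 the term was 0.28 ± 0.37 (adjusted p = 0.538) and for Slc7a3 0.91 ± 0.36 (adjusted p = 0.0310, under 2-fold, and called at 1.16 without E13.5 male replicate 2, with 1.25 without E12.5 female replicate 1, 1.11 without E18.5 male replicate 1 and 1.004 without E17.5 male replicate 1).

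**Figure D3:**
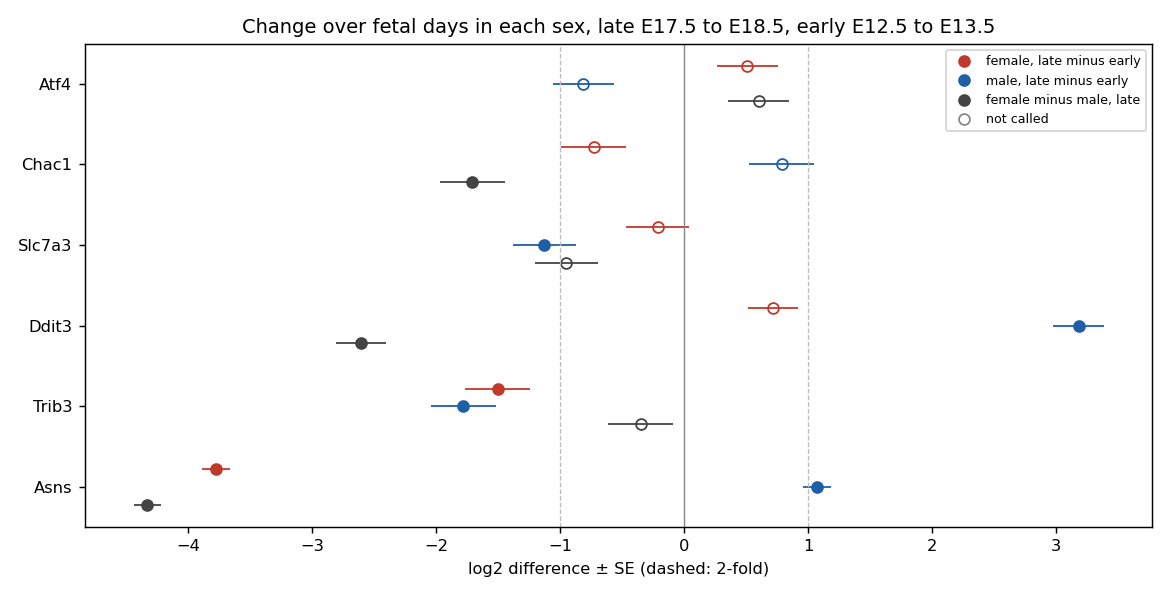
Log2 difference with standard error (x axis) of each of the 6 genes (y axis) for the change from E12.5 to E13.5 to E17.5 to E18.5 in females (red) and males (blue) and for female minus male at E17.5 to E18.5 (black), with open points where a difference was not called. Asns moves −3.77 in females and 1.07 in males, Ddit3 moves 3.18 in males, and Trib3 falls in both sexes.

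Genes on marker lists of other cell types also differed between the sexes. The lists are named for cell types, and which cells carried these genes here was not tested. Between late PGC of both sexes, 4 of 7 Sertoli markers, 4 of 4 granulosa markers, 3 of 4 endothelial markers, 2 of 4 mesenchymal markers, 1 of 2 steroidogenic markers and 1 of 5 erythroid markers were lower in females, and 0 of these were higher. Of all genes 22.5% were lower in females and 20.0% higher. The summed normalized level of the Sertoli list was 186 to 225 on female and 1078 to 2971 on male arrays, and that of the mesenchymal list 156 to 204 and 1037 to 1125. Granulosa sums were 159 to 216 and 582 to 1330.0, endothelial sums 185 to 351 and 442 to 811, and erythroid sums 984 to 2289 and 2139 to 8179. A late female array detected at most 1 of 7 Sertoli markers on the platform, 2 of 5 granulosa, 2 of 5 endothelial and 1 of 5 mesenchymal. For steroidogenic and erythroid markers it was at most 0 of 5 and 1 of 5. A late male array detected at most 6, 4, 4, 4, 1 and 2 in the same order. The lowest detected level was 4.92 to 5.09 on these male arrays and 5.60 to 5.92 on the female ones, so these counts rest on different limits. No macrophage marker was tested. Of the ES cell markers 3 of 6 were lower in late females and 0 higher (sums 493 to 1794 and 3569 to 4851), and of 7 germ cell markers 1 was higher and 1 lower (sums 9153 to 15888 and 5728 to 8261). The part of these markers, and of any cells that carry them, in the differences of Asns, Ddit3, Chac1 and the lists below was not tested.

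Within males, from early to late, 4 of 4 granulosa markers and 3 of 4 mesenchymal markers rose, 2 of 4 endothelial markers rose and 1 fell, 1 of 5 erythroid markers rose and 2 fell, and 0 of 7 Sertoli markers changed. Of all genes 20.3% rose and 16.4% fell. Over the same days 3 of 7 germ cell markers fell and 0 rose (sums 27677 to 30511 early and 5728 to 8261 late), and 4 of 6 ES cell markers fell and 1 rose. The germ cell list holds Ddx4, Dazl, Dppa3, Dppa5a, Tfap2c, Nanos3 and Mael. Against the PGC mean, ESC read 3.23 higher for Dppa5a and 2.34 higher for Tfap2c on the log2 scale, and at least 2-fold lower for 3 of the 7. A linear sum weighs its brightest genes most, and the share of each gene in it was not tested. Mesenchymal sums were 143 to 220.1 early and 1037 to 1125 late, while Sertoli sums were 1205 to 3040.2 and 1078 to 2971. In females over the same days 1 of 7 Sertoli markers, 2 of 4 granulosa markers, 1 of 4 endothelial markers, 3 of 7 germ cell markers and 4 of 6 ES cell markers fell, and of 5 erythroid markers 1 rose and 1 fell. There 10.1% of all genes rose and 11.6% fell. At E14.5 to E15.5, where Asns, Chac1 and Trib3 were lower in females, 1 marker each of the Sertoli, mesenchymal and erythroid lists was lower in females and 3 of 4 granulosa markers were higher, with Sertoli sums of 395 to 721 in females and 538 to 802 in males. In that window 5 of 7 germ cell markers (sums 5256 to 11244 in females and 7199.7 to 22386 in males) and 5 of 6 ES cell markers (630.5 to 1357 and 4191 to 6612) were lower in females and 0 higher. Of all genes 16.9% were higher in females there and 17.9% lower. At 8 to 10 dpp against late fetal males, 2 of 7 Sertoli markers were higher and 3 of 4 granulosa, 3 of 4 endothelial, 2 of 5 erythroid, 4 of 7 germ cell and 2 of 6 ES cell markers lower, with 1 germ cell marker higher. The shares of all genes were 18.4% higher and 18.6% lower. For Slc7a3 at E12.5 to E13.5, 3 of 7 Sertoli markers and 2 of 5 erythroid, 2 of 7 germ cell and 2 of 6 ES cell markers were also lower in females, and 1 of 4 granulosa markers was higher. The shares of all genes were 7.06% higher and 5.67% lower in females. The part of the markers was not tested in any of these comparisons.

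Genes named in the lists that follow are called members with no overlap of arrays, and among these the ones with the largest changes. Called members with overlap stayed in the counts but were not named, whatever the size of their change. Late in fetal life (E17.5 to E18.5) 6 of the 10 other Atf4 target genes were lower in females and 0 higher, with a median log2 difference of −1.74, where 22.5% of all genes were lower and 20.0% higher. Herpud1, an ER membrane protein of protein degradation, was lower by 3.87 ± 0.24 and Nupr1 by 2.44 ± 0.23. Vegfa, the vascular growth factor, had a log2 difference of −2.496 ± 0.20. Of the eIF2alpha kinases and phosphatase subunits 2 of 5 were lower, Ppp1r15a (GADD34), the stress-induced phosphatase subunit, by 2.75 ± 0.17 and the kinase Eif2ak2 by at least 1.62-fold. Cebpb, a bZIP partner, was lower by 1.21 ± 0.16, the only one of 4 in its list.

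The list of ER chaperones ran the other way. Of its 12 tested genes, Xbp1 and Edem1 included, 7 were higher in late females and 0 lower, with a median of 1.08. The shares of all genes were the same 20.0% and 22.5%. Pdia6, a disulfide isomerase, was at least 3.84-fold higher, Dnajc3, a co-chaperone that inhibits an eIF2alpha kinase, was higher by 1.96 ± 0.19 and the lectin chaperone Calr by 1.49 ± 0.24. Without background correction 2 were higher, with cyclic loess 4 were higher and 1 lower, and with E16.5 added to the window 3 were higher and 1 lower.

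Enzymes and transporters of amino acids were split at E17.5 to E18.5. Of 8 serine, proline and transsulfuration enzymes 2 were higher and 4 lower in females (median −0.90), with Phgdh, the first step of serine synthesis, lower by 2.00 ± 0.17, the mitochondrial folate enzyme Mthfd2 by 1.96 ± 0.32 and Aldh18a1 of proline synthesis by 1.70 ± 0.26. Among 6 transport genes 2 were higher, the glycine transporter Slc6a9 by 3.24 ± 0.18 and the cystine transporter Slc7a11 by 2.20 ± 0.29, and 3 were lower. Slc38a2, a carrier of small neutral amino acids, was lower by 2.69 ± 0.15 on its brightest probe while its dimmest probe gave 0.89. Of 18 aminoacyl-tRNA synthetases 4 were higher and 2 lower, with Nars higher by 2.31 ± 0.19, Wars by 1.54 ± 0.11 and Cars by at least 2.13-fold.

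**Figure D4:**
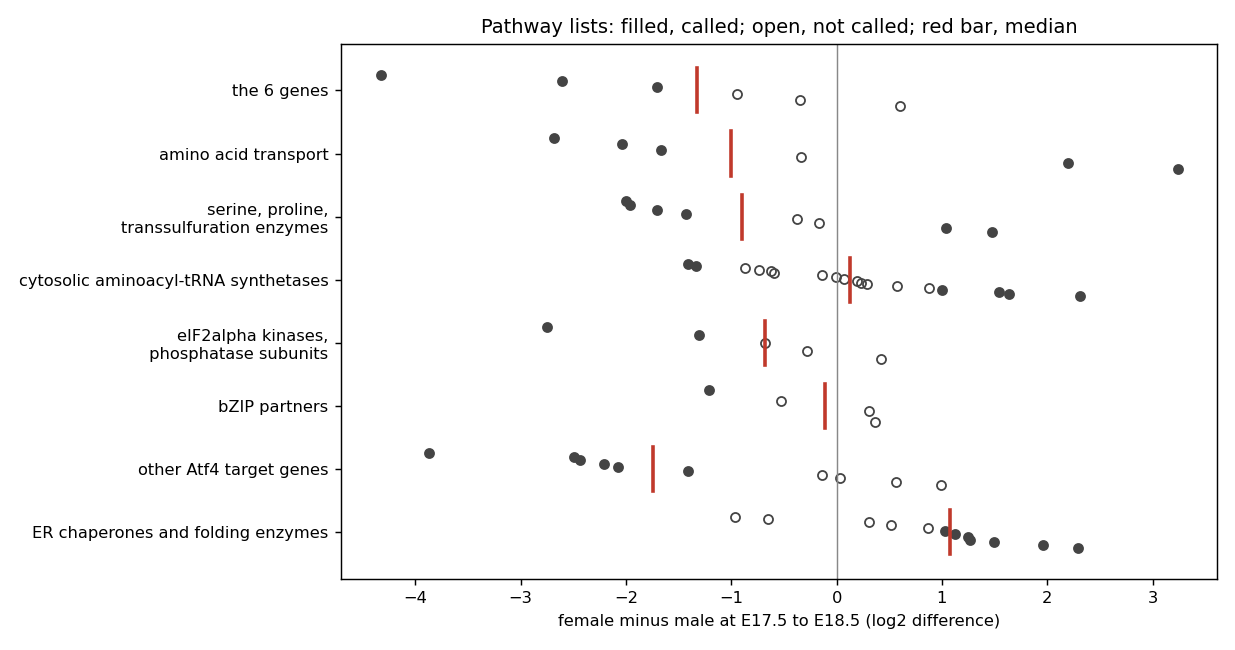
Log2 difference, female minus male at E17.5 to E18.5 (x axis), of each tested gene of 8 lists (y axis), filled where called and open where not, with a red bar at the list's median. The other Atf4 target genes lie mostly to the left with a median of −1.74, and the ER chaperones mostly to the right with a median of 1.08.

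At E14.5 to E15.5 fewer of the other Atf4 target genes differed, 1 higher and 2 lower of 10 (median −0.60, where 16.9% of all genes were higher and 17.9% lower), the higher one being Gadd45a, a growth arrest gene (1.84 ± 0.17). The largest difference in the lists was that of Phgdh, lower in females by 5.06 ± 0.17 (adjusted p = 5.20e-18). Of 8 serine, proline and transsulfuration enzymes 1 was higher and 4 were lower, among them Shmt2 by 1.83 ± 0.36 and Aldh18a1 by 1.64 ± 0.26. Of the 6 transport genes 2 were lower, Slc7a5, a large neutral amino acid exchanger, by 1.78 ± 0.13 and Slc38a2 by 1.68 ± 0.15. The dimmest Slc38a2 probe again disagreed, at 0.01. Among ER chaperones 4 were higher and 1 lower, with Dnajc3 at least 9.45-fold higher.

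In females from early to late, Asns fell along with 3 of 8 serine, proline and transsulfuration enzymes, and 1 rose. Psat1 fell by 2.73 ± 0.15 and Mthfd2 by 1.48 ± 0.32, while Phgdh rose by 1.82 ± 0.17. Of the 10 other Atf4 targets 4 fell and 1 rose, where 11.6% of all genes fell and 10.1% rose, with Ddit4, an inhibitor of mTORC1, falling by 2.13 ± 0.15, Herpud1 by 1.64 ± 0.24 and Sesn2, also an mTORC1 inhibitor, by 1.48 ± 0.27. With an offset of 50, cyclic loess or median scaling, 3 fell and 0 rose. Among transport genes Slc6a9 rose by 3.49 ± 0.18 and Slc7a11 by at least 3.28-fold, and Slc1a4, a neutral amino acid carrier, fell by at least 2.70-fold.

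In males over the same days, with Ddit3 and Asns, 5 of the 10 other Atf4 targets rose and 2 fell (median 1.46, beside −0.01 over all genes, of which 20.3% rose and 16.4% fell). Vegfa rose by at least 3.89-fold, Nupr1 by at least 3.41-fold and Herpud1 by 2.20 ± 0.24 on the log2 scale. Ppp1r15a rose by 2.33 ± 0.17 and the bZIP factors Atf5 and Cebpb by 2.07 ± 0.23 and 1.22 ± 0.16. Phgdh rose by 2.74 ± 0.17, while 5 of 18 aminoacyl-tRNA synthetases fell and 0 rose, and Nars fell by 1.95 ± 0.19. The ER chaperones counted 1 rise and 4 falls, and with cyclic loess 1 rise and 0 falls.

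From late fetal males to 8 to 10 dpp, 4 of the 10 other Atf4 targets were lower and 2 higher, where 18.6% of all genes were lower and 18.4% higher. Nupr1 was at least 4.66-fold lower and Fgf21, a stress-induced hormone, at least 3.55-fold lower, while Eif4ebp1 was higher by 2.17 ± 0.19. Ppp1r15a was lower by 2.05 ± 0.17, Slc38a2 by 1.96 ± 0.15 and Phgdh by 1.57 ± 0.17. With median scaling these 3 genes read 0.06, 0.16 and 0.53. In that scaling 16 of the 18 aminoacyl-tRNA synthetases were higher after birth, against 1 with quantile normalization.

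The genes most like each of the 6 over the 22 PGC group means were named by the highest correlation among all genes tested, as a description without a test. For Asns they were Pdlim4 (0.97), Grn (0.96) and Plcb3 (0.96), and for Ddit3 Pcare (0.94), Trim50 (0.93) and AF067063 (0.92). Chac1 was most like Scaf8 (0.96), Slc2a6 (0.96) and Crlf3 (0.96), and Trib3 like Pmm1 (0.94), Pml (0.92) and Slc25a5 (0.91). For Slc7a3 these were Proc (0.93), Mkx (0.92) and Lefty2 (0.90), and for Atf4 Clpx (0.93), Exosc6 (0.92) and Fam53a (0.92). None of the 18 is one of the 6 genes. Of the 43 PGC arrays, Proc and AF067063 were detected on 8, Mkx on 9, Trim50 on 16 and each of the rest on 20 or more. Slc7a3 itself was detected on 13 and Atf4 on 14. Where a gene was rarely detected, its correlation rests largely on values near background. Within the 7 male embryonic groups Ddit3 correlated with Asns at 0.95 and with Trib3 at −0.99, and within the 7 female groups Ddit3 with Asns at −0.56.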

How the data were processed

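Beadchip intensity values from BeadStudio 3.2 (per the submitters' processing notes) were deposited per probe without scaling between arrays, each with a detection p-value that the authors' software gave per the file headers. A deposited log2 table, which those notes trace to RMA and lumi, had columns with the same sorted values to within 0.0014 and a median of 3.20, and served as an alternative (its offset and background steps are not given in the sources used here). Background was estimated through the detection p-values and arrays were quantile-normalized (neqc, offset 16, limma 3.58.1, R 4.3.3). Probes detected (p under 0.01) on at least 2 arrays were kept (16086), and the brightest probe per symbol gave 10935 genes. Symbols came from the platform annotation, updated through RefSeq GRCm38.p6. A model of 23 group means (21 residual and 3.63 prior degrees of freedom) was fitted to all 44 arrays, with moderated tests two-sided and Benjamini-Hochberg adjustment. The lone ESC and 14 dpp arrays borrow their spread from the other groups.

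The genes, gene lists and tests were chosen with earlier results of these data known. Up to 3 called members of each list are named, taken by size of change from those with no overlap of arrays. A called member with a larger change but with overlap is therefore not named. The 3 genes most like each gene are named too. On simulated data for females against males at E17.5 to E18.5, over 10935 genes, 94 of 100 changes of log2 1.5 and 100 of 100 of log2 3 were recovered. For 8 to 10 dpp against late fetal males the counts were 91 of 100 and 100 of 100. Noise was added to normalized log2 values, so background correction, detection limits and scaling between arrays were not part of this simulation. Replicate numbers were not taken to pair the samples in the main fit. Same-numbered arrays correlated above 0.1 in 21 of 210 pairs of groups, while their mean correlation was above 0 in 21 of 21 groups. Whether same-numbered arrays share an effect was not tested, and counts with the replicate number as a block are given below. Alternatives were other normalizations, filters, probes, days and arrays left out.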

Additional observations from a re-analysis of the deposited data

Results flagged for a closer look

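The change from E12.5 to E13.5 to E17.5 to E18.5 differed between the sexes for 4 of the 6 genes, by the interaction term in limma. Female change minus male change was −4.844 for Asns (SE 0.16, adjusted p = 8.50e-18), −2.466 for Ddit3 (SE 0.29, adjusted p = 5.73e-08), −1.515 for Chac1 (SE 0.37, adjusted p = 1.07e-03) and 1.321 for Atf4 (SE 0.35, adjusted p = 2.05e-03), all on the log2 scale. Of all genes, 43.1% passed the same test, so a difference of this kind was common. For Asns all 4 late female arrays were below all early female ones, and all 4 late male arrays above all early male ones. The Atf4 term rests on levels that only 2 of the 16 arrays detected.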

How the results depend on the processing

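Counts of called genes among the 6 changed under several alternatives. Without background correction 0 were called between the sexes at E12.5 to E13.5 (against 1), 1 at E14.5 to E15.5 (against 3), 1 in females over fetal days (against 2), 2 in males (against 4) and 2 in the interaction (against 4). An offset of 50 gave 1 in females and 2 in the interaction. Cyclic loess gave 1 at E14.5 to E15.5, 1 in females and 2 in the interaction. Median scaling gave those same 3 counts of 1, 1 and 2, and 2 in males. With the authors' values 2 were called at E12.5 to E13.5, 5 at E17.5 to E18.5 (against 3) and 5 at 8 to 10 dpp (against 3). Without the fold threshold the counts were 3 at E12.5 to E13.5, 5 at E17.5 to E18.5, 4 in females, 6 in males, 5 in the interaction and 5 at 8 to 10 dpp. Leaving out each array in turn gave 0 to 1 from E11.5 to E12.5 (1 without E12.5 female replicate 1), 1 to 1, 3 to 3 and 3 to 4 between the sexes in the 3 windows, 2 to 2 in females, 3 to 5 in males, 4 to 5 in the interaction, 3 to 4 at 8 to 10 dpp, 0 to 0 at 18 to 20 dpp and 6 to 6 in the F-test. With the replicate number as a block, no count changed (0, 1, 3, 3, 2, 4, 4, 3, 0 and 6 in the order of the comparisons), and deviations of same-numbered arrays correlated at −0.124 to 0.335 over 210 pairs of groups, 21 of them over 0.1, with a mean above 0 in 21 of 21 groups.

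Median scaling turned 4 differences at 8 to 10 dpp, to 0.005995 for Asns, 0.161 for Slc38a2, 0.064 for Ppp1r15a and 0.535 for Phgdh, and put the median of all genes at 1.10 there and at 0.18, −0.12 and −0.16 from E11.5 to E12.5, in males over fetal days and at 18 to 20 dpp. Cyclic loess put it at −0.16 at 8 to 10 dpp. As reported, these medians lay between −0.03 and 0.03. The dimmest probe turned Tars at E12.5 (−0.140), Slc38a2 between the sexes at E14.5 to E15.5 (0.0149) and E17.5 to E18.5 (0.893), and Ddit3 in ESC against PGC (0.0217). The median correlation of the 6 genes was 0.0982 with cyclic loess and 0.413 with median scaling, and −0.049 to 0.0803 on arrays of 1 replicate number. Over all genes, calls ran from 2479 (no background correction) to 7508 (no fold threshold) at E17.5 to E18.5, against 4646, and from 0 (the compared arrays alone) to 1660 (without E11.5 replicate 2) from E11.5 to E12.5, against 644. The causes of these changes were not tested. Atf4, Chac1, Slc7a3 and Trib3 lay near background on most fetal arrays, which limits their folds.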
